A study of Homo sapiens with 6 samples.

Results

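The transcripts described here come from 38 genes of homologous recombination, DNA end resection and the Fanconi anaemia pathway, out of 60708 gene identifiers in the deposited counts. They were taken as the rows whose Ensembl identifier carries the listed symbol, and each of the 38 symbols matched 1 identifier. All 38 genes had enough counts to be tested. The cells were U2OS, an established human osteosarcoma line, described by the submitters as wild type. Control cells received the solvent DMSO, and treated cells, called PARGi here, received 25 µM of PDD00017273, a compound that blocks poly(ADP-ribose) glycohydrolase (PARG). Both groups were kept for 4 days and gave 3 biological replicates each. RNA sequencing used total RNA and a kit that keeps the strand of the transcript.

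Homologous recombination repairs a broken chromosome by copying from an intact sister. The break is sensed and its ends are trimmed to single strands, the BRCA proteins and their partners prepare these strands to pair with the sister, and the joined molecules are later separated by dissolution or cutting. The Fanconi pathway deals with crosslinks between the DNA strands: its core complex attaches ubiquitin to the FANCD2-FANCI clamp, and recombination completes the repair. Poly(ADP-ribose) glycohydrolase breaks down the poly(ADP-ribose) chains that PARP enzymes build at DNA breaks and stalled forks, so the inhibitor acts close to where these proteins work. Many of these genes are transcribed most in cells that replicate their DNA, in part through E2F transcription factors.

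E2F-type letters were looked for in the RefSeq promoters (GRCh38.p14) of the genes, because many members moved in the same direction. The motifs searched were TTTCCCGC, TTTGGCGC, TTTCGCGC and TTTGCCGC, on both strands, from 250 bases before to 50 bases after each start. Of the 33 members matched by symbol, 6 held a match (18.2%), against 3.99% of 27305 genes in the whole promoter table and 6.12% of 13014 tested genes. The 7 matches are shown with 11 bases on either side, 5′ to 3′ on the strand of the gene, with the matched letters in capitals.
EXO1, chr1:241848197-241848226, plus strand: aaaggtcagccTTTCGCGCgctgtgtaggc
FANCD2, chr3:10026424-10026453, plus strand: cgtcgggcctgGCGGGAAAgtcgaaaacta
XRCC2, chr7:152676102-152676131, minus strand: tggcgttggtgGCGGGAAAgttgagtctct
RMI1, chr9:83980762-83980791, plus strand: ggcgcgagcgcGCGGCAAAtcgggcgggaa
FANCC, chr9:95317863-95317892, minus strand: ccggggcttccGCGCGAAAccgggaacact
FANCC, chr9:95317737-95317766, minus strand: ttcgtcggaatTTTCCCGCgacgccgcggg
FANCA, chr16:89816801-89816830, minus strand: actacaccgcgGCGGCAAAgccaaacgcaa
The matches of EXO1 and XRCC2 began 5 and 22 bases into the transcript, that of FANCD2 began 2 bases before the start, and the others lay further upstream. EXO1, FANCD2, XRCC2 and FANCA were higher in PARGi, whereas FANCC and RMI1 did not pass the test. The letters were thus found in 4 of 18 members called higher (22.2%) and in 2 of 15 others (13.3%). With the 250 bases before the start alone, 3 of the 33 members held a match (9.09%), beside 5.19% of the tested genes. In that window the order turned, with 1 of the 18 called higher (5.56%) and 2 of the 15 others (13.3%). The letters TTTGAA and TTCGAA, those of a cell cycle motif called CHR, were found in 3 of the 33 members (9.09%) and in 16.1% of the tested genes. A match shows only that the letters are present.

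The libraries held between 60286931 and 80605145 counts, and the trimmed-mean (TMM) scaling factors ran from 0.9953 to 1.007. Levels are given as CPM, counts scaled to a common library total with those factors, and each SD is taken across 3 libraries. The osteoblast and mesenchymal markers fixed for the cell type check summed to 10000 to 10800 CPM in every library, although TWIST1 was at or near 0, whereas the leukocyte markers summed to at most 1.5 CPM and the endothelial ones to at most 4.07 CPM. Epithelial markers summed to 27.4 to 28.6 CPM in DMSO and 18.4 to 21.7 CPM in PARGi, most of it KRT14. Within these sums, COL1A2 (log2 fold change -0.80), RUNX2 (-0.27), SPARC (-0.08) and KRT14 (-0.66) were called lower and CDH1 (0.67) higher by edgeR. The part of these markers in the members' changes was not tested.

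Most of the transcripts that changed were higher in PARGi, each by a small amount. At a Benjamini-Hochberg adjusted p under 0.05 in edgeR's quasi-likelihood test, 20 members rose and 2 fell, FANCF and RMI2, while 16 did not pass. As a share of the members, 52.6% were called higher and 5.26% lower, where 13.2% of all 20409 tested genes were called higher and 11% lower. The median log2 fold change of the members was 0.096, beside -0.007 for all tested genes. The rises ran from 5.9% for RAD51AP1 to 23.8% for FANCB. In 22 members all 3 PARGi libraries lay above all 3 DMSO libraries, and in 2 they lay below, where 19.8% and 18.2% of the tested genes did so. The 22 called members were all among these. At an adjusted p under 0.01, 19 of the 38 members were called, where 15.3% of all tested genes were. Of these 19 members, 17 were higher, where 8.69% of all tested genes were called higher. The 16 members that did not pass had log2 fold changes from -0.068 to 0.163 and edgeR adjusted p values from 0.0708 to 0.97, and 3 of them, PALB2, RAD51B and MRE11, had an unadjusted p under 0.05. Tested against a change of 1.2-fold in place of no change (edgeR's glmTreat), 0 members passed, and 0 had an unadjusted p under 0.05, while 2.28% of all tested genes passed. Without that minimum size, DESeq2 called 21 members and limma-voom 22. Over all genes, edgeR called 4951 in either direction (24.3% of those tested). DESeq2 called clearly fewer genes than that, and limma-voom slightly fewer.

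**Figure D1:**
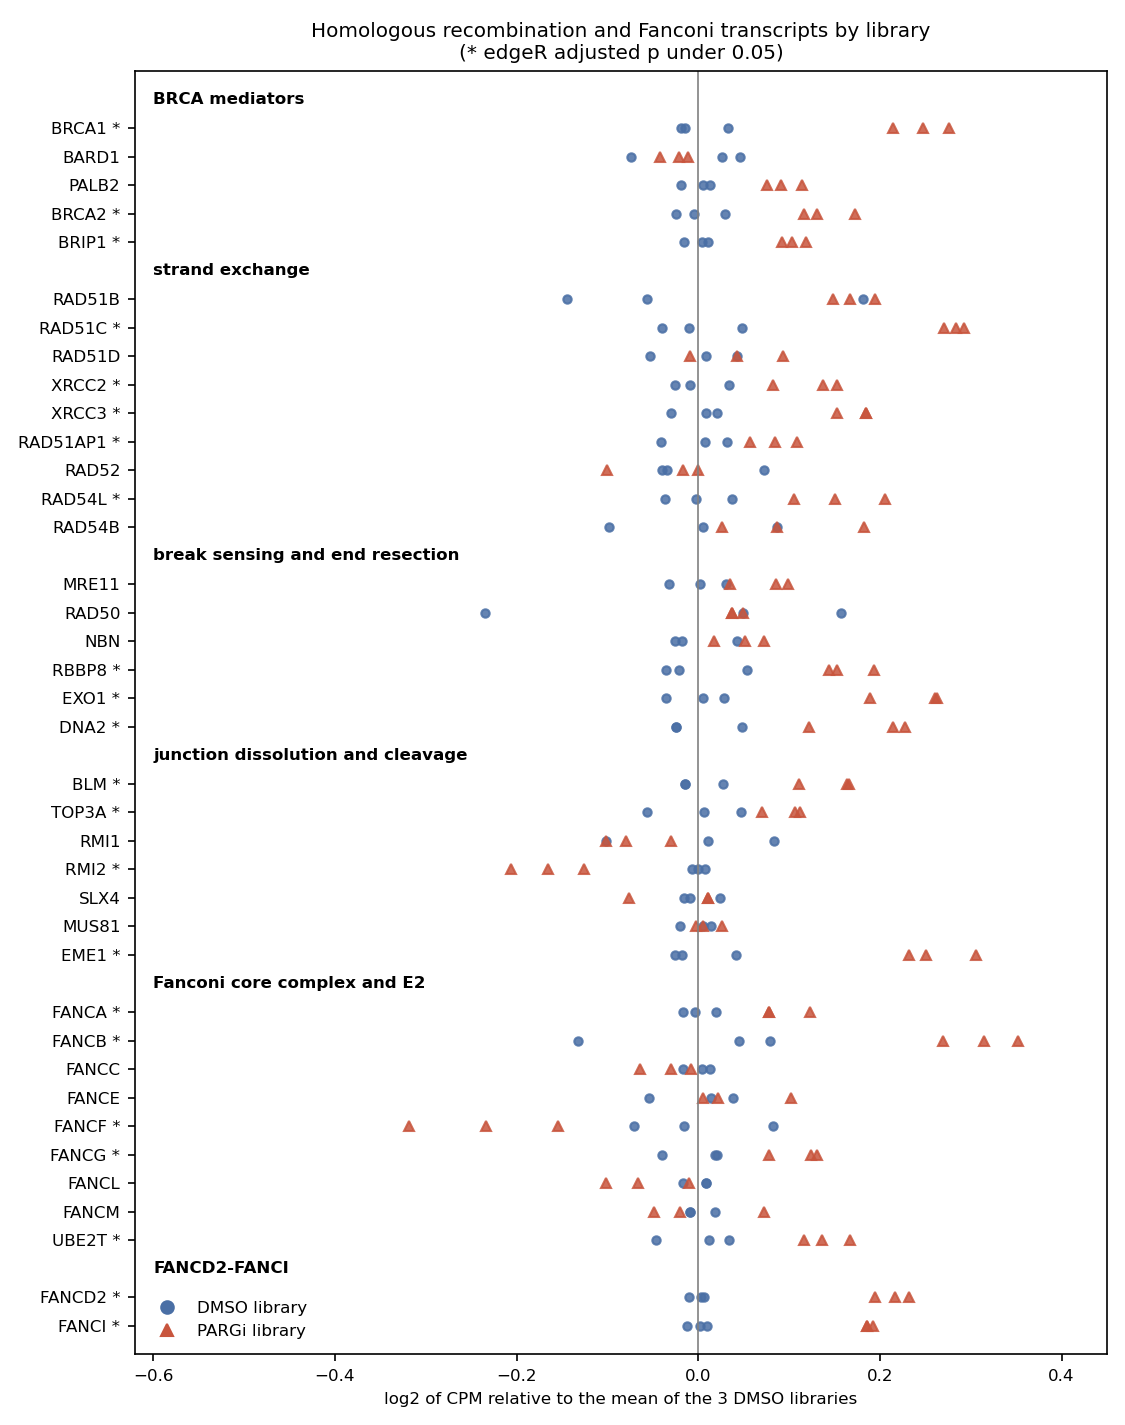
Each row is a transcript, and each symbol a library: circles are the 3 DMSO and triangles the 3 PARGi libraries. The horizontal axis is log2 of the CPM relative to the mean of the DMSO libraries, and asterisks mark the 22 members with an edgeR adjusted p under 0.05. The triangles lie right of the circles for 20 of these and left of them for FANCF and RMI2.

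Summed over the 38 genes, the libraries held 1806, 1813 and 1807 CPM in DMSO replicates 1 to 3 and 1964, 1953 and 1956 CPM in PARGi replicates 1 to 3. The PARGi mean was 8.25% above the DMSO mean, and the groups did not overlap. The median member stood at 0.100, 0.104 and 0.103 (log2) above the DMSO mean in the 3 PARGi libraries. The shift was thus present to a like degree in each of them. In these bulk libraries, more cells of a kind that makes a transcript and more transcript per cell cannot be told apart.

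The BRCA mediators act on the single-stranded DNA left by trimming, and 3 of the 5 rose. BRCA1, a ubiquitin ligase that promotes end trimming, stood at 65.6, 68 and 65.8 CPM in DMSO and 80.5, 78.9 and 77.1 CPM in PARGi. The groups were well apart. Its log2 fold change was 0.25 (SE 0.028, 95% interval 0.19 to 0.30, edgeR adjusted p = 6.08e-07), a rise of 18.5%. BRCA1 occupies positions 43044295 to 43170245 of chromosome 17, minus strand, in the GENCODE 29 annotation of GRCh38. It shares 1.31% of its exonic bases with the non-coding gene AC060780.1 on its own strand, which went the other way (log2 fold change -0.19, edgeR adjusted p = 0.0262).

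BARD1, the obligate partner of BRCA1 in that ligase, was at 43.9, 43.3 and 40.4 CPM in DMSO and 41.9, 41.3 and 42.2 CPM in PARGi, within the spread of the controls. Its log2 fold change was -0.02, with an interval from -0.10 to 0.05 (edgeR adjusted p = 0.664). BRCA2, which binds single-stranded DNA at trimmed ends, was at 38.3, 37.4 and 36.9 CPM in DMSO and at 41.1, 42.3 and 40.7 CPM in PARGi. It rose by a log2 fold change of 0.14 (SE 0.033, edgeR adjusted p = 0.00325). BRIP1, a helicase that binds BRCA1, was at 77.4, 77 and 76 CPM in DMSO and 81.9, 82.5 and 83.4 CPM in PARGi, a log2 fold change of 0.11 (SE 0.027, edgeR adjusted p = 0.00451). PALB2, the bridge between BRCA1 and BRCA2, had separated groups, at 17.9 ± 0.222 CPM (DMSO) against 19 ± 0.286 CPM (PARGi, SD, n = 3 per group), but its log2 fold change of 0.09 did not pass over all genes (edgeR adjusted p = 0.124).

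Among the genes of strand exchange, which include 5 paralogs, 5 of 9 rose and 0 fell. RAD51C, a paralog that belongs to both known paralog complexes, had the smallest adjusted p of all members. It stood at 55.8, 52.5 and 53.6 CPM in DMSO and at 65.1, 65.7 and 66.1 CPM in PARGi, a gap several times the spread within either group. The log2 fold change was 0.28 (SE 0.03, 95% interval 0.22 to 0.35, edgeR adjusted p = 1.6e-07). RAD51C lies on chromosome 17 from 58692573 to 58735611, on the plus strand.

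XRCC3, the partner of RAD51C in the smaller complex, was at 37.1, 36.1 and 37.4 CPM in DMSO and 41.9, 41 and 41.9 CPM in PARGi (log2 fold change 0.17, SE 0.033, edgeR adjusted p = 0.00036). KLC1 on the opposite strand covers 76.7% of its exonic bases and was lower in PARGi (log2 fold change -0.14, edgeR adjusted p = 0.0298). RAD54L, a DNA translocase that acts in strand exchange, was at 45.5, 46.6 and 47.9 CPM in DMSO and 53.8, 50.2 and 51.8 CPM in PARGi (log2 fold change 0.15, SE 0.033, edgeR adjusted p = 0.00143). These 2 genes kept their calls in all 17 alternative fits, as did RAD51C.

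The other 2 calls of this group were less firm. XRCC2, a paralog that pairs with RAD51D, stood at 25.8, 26.9 and 26.1 CPM in DMSO and 27.8, 29.2 and 28.9 CPM in PARGi (log2 fold change 0.13, SE 0.038, edgeR adjusted p = 0.0157). RAD51AP1, which aids strand pairing, was at 66.5, 64.3 and 67.6 CPM in DMSO and 70.1, 68.8 and 71.3 CPM in PARGi (log2 fold change 0.08, SE 0.029, edgeR adjusted p = 0.0397). XRCC2 kept its call in 13 of 17 alternatives and RAD51AP1 in 8. Without DMSO replicate 1, without PARGi replicate 2, without PARGi replicate 3, and with upper-quartile scaling, both were lost and 3 of the 9 genes remained called.

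RAD51D, RAD51B, RAD52 and RAD54B did not pass. RAD51D, a paralog of the larger complex, was at 16.5 ± 0.548 CPM (DMSO) against 17 ± 0.559 CPM (PARGi), a log2 fold change of 0.05 (interval -0.05 to 0.14). RAD52, a strand annealing protein, was at 25.4 ± 1.14 against 24.7 ± 0.924 CPM, a log2 fold change of -0.04 (interval -0.13 to 0.05). Small stretches of both are shared with another gene on the same strand, 8.01% of RAD51D with RAD51L3-RFFL and 5.56% of RAD52 with AC004803.1. RAD51B, another paralog of that complex, was at 6.71, 7.13 and 8.41 CPM in DMSO and 8.49, 8.22 and 8.33 CPM in PARGi. DMSO replicate 3 lay among the PARGi libraries, and the log2 fold change of 0.16 did not pass (edgeR adjusted p = 0.111). Without that library it was 0.27 with an edgeR adjusted p of 0.00692. RAD54B, a relative of RAD54L, was at 2.57, 2.76 and 2.92 CPM in DMSO and at 2.92, 3.12 and 2.8 CPM in PARGi, with overlapping groups. It shares 59.1% of its exonic bases with FSBP on the same strand, so reads of either may have been left uncounted.

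Of the 6 genes of break sensing and end resection, 3 rose: EXO1, DNA2 and RBBP8. EXO1, an exonuclease of long-range trimming on chromosome 1 (plus strand, 241847967 to 241895148), stood at 50.2, 48.8 and 51 CPM in DMSO and 60, 59.9 and 57 CPM in PARGi. Its log2 fold change was 0.24 (SE 0.032, 95% interval 0.17 to 0.30, edgeR adjusted p = 4.64e-06). DNA2, the nuclease and helicase of the parallel trimming route, was at 46.7, 49.1 and 46.7 CPM in DMSO and 51.7, 55.6 and 55.1 CPM in PARGi (log2 fold change 0.19, SE 0.034, edgeR adjusted p = 0.000173). RBBP8, which encodes CtIP and starts the trimming, was at 65.1, 61.2 and 61.8 CPM in DMSO and 71.7, 69.3 and 69.7 CPM in PARGi (log2 fold change 0.16, SE 0.030, edgeR adjusted p = 0.000263). In all 3 the groups were apart.

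The genes of the MRN complex, which binds the broken end first, did not pass. The nuclease gene MRE11 was at 59.9 ± 1.29 CPM (DMSO) against 63.1 ± 1.44 CPM (PARGi, SD, n = 3 per group), with separated groups and a log2 fold change of 0.07 (edgeR adjusted p = 0.0708). It passed without DMSO replicate 2 (0.09, edgeR adjusted p = 0.042) and with an offset for GC content and length (0.07, edgeR adjusted p = 0.0497). NBN, the adaptor of the complex, had a log2 fold change of 0.05 with an interval from -0.01 to 0.10 (edgeR adjusted p = 0.234). RAD50, its ATPase, was at 3.61, 2.75 and 3.35 CPM in DMSO and 3.32, 3.35 and 3.32 CPM in PARGi, and the DMSO libraries spanned the PARGi ones. In GENCODE 29, 79.7% of the exonic bases of RAD50 are shared with the gene AC116366.3 on the same strand, which is listed at 0 in every library, so most reads of RAD50 may not have been counted.

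The genes that take joined molecules apart were divided: of 7, 3 rose and 1 fell. EME1, the partner of the MUS81 nuclease, had the largest rise in this group, from 19.9, 19 and 19.1 CPM in DMSO to 23, 22.7 and 23.9 CPM in PARGi. The log2 fold change was 0.26 (SE 0.042, 95% interval 0.17 to 0.35, edgeR adjusted p = 4.94e-05). EME1 lies on the plus strand of chromosome 17, from 50373220 to 50381483, and 16.4% of its exonic bases face LRRC59 on the opposite strand, which was called higher as well (log2 fold change 0.11, edgeR adjusted p = 0.00743). MUS81, the catalytic subunit, was at 34.7, 34.1 and 34.9 CPM in DMSO and 34.7, 34.5 and 35.2 CPM in PARGi, and its log2 fold change of 0.01 had an interval from -0.06 to 0.08.

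The helicase BLM, the topoisomerase TOP3A and the scaffold proteins RMI1 and RMI2 form the complex that dissolves double junctions, and their transcripts went in different directions. BLM was at 44.3, 44.3 and 45.6 CPM in DMSO and 50.1, 48.3 and 50.2 CPM in PARGi (log2 fold change 0.15, SE 0.032, edgeR adjusted p = 0.00121). TOP3A was at 69.7, 74.9 and 72.8 CPM in DMSO and 78, 78.3 and 76.1 CPM in PARGi (log2 fold change 0.10, SE 0.030, edgeR adjusted p = 0.0188). This call was lost without DMSO replicate 1, PARGi replicate 1 or PARGi replicate 2 and with upper-quartile scaling. RMI2 fell, from 20.3, 20.4 and 20.2 CPM in DMSO to 17.6, 18.1 and 18.6 CPM in PARGi, with the DMSO libraries within a narrow band and all PARGi libraries below it. Its log2 fold change was -0.16 (SE 0.042, 95% interval -0.25 to -0.07, edgeR adjusted p = 0.00633). RMI2 lies on the plus strand of chromosome 16, from 11249619 to 11381662. RMI1 had overlapping groups, at 21.1 ± 1.33 CPM (DMSO) against 20.1 ± 0.523 CPM (PARGi), and a log2 fold change of -0.07 (interval -0.16 to 0.03). SLX4, the scaffold that gathers the cutting enzymes, was at 44.1 ± 0.679 against 43.5 ± 1.53 CPM (log2 fold change -0.02, interval -0.09 to 0.05).

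The target of the Fanconi core complex rose as a pair. FANCD2 was at 80.4, 80.6 and 79.7 CPM in DMSO and 93.2, 91.8 and 94.2 CPM in PARGi, an increase of 16% (log2 fold change 0.21, SE 0.026, 95% interval 0.16 to 0.27, edgeR adjusted p = 1.4e-06). FANCI, which forms the clamp with FANCD2, was at 199, 200 and 197 CPM in DMSO and 226, 226 and 227 CPM in PARGi (log2 fold change 0.19, SE 0.024, edgeR adjusted p = 2.77e-06). The libraries of a group lay close together in both genes, and the groups were far apart. FANCD2 lies on chromosome 3 from 10026414 to 10101930 and FANCI on chromosome 15 from 89243949 to 89317261, both on the plus strand. The pseudogene FANCD2P2 had 11 counts in all 6 libraries together, against 36130 for FANCD2.

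The core complex, which adds the ubiquitin, was grouped with its conjugating enzyme UBE2T, and 4 of these 9 genes rose and 1 fell. FANCB, a subunit of the catalytic module and the only member on the X chromosome (minus strand, 14835961 to 14873069), had the largest rise of the 38. It was at 6.96, 7.87 and 8.06 CPM in DMSO and 9.74, 9.2 and 9.49 CPM in PARGi, with separated groups. The log2 fold change was 0.31 (SE 0.065, 95% interval 0.17 to 0.44, edgeR adjusted p = 0.00102), and the wide interval goes with its low level. UBE2T, the ubiquitin-conjugating enzyme that serves the complex, was at 52.4, 54.6 and 55.4 CPM in DMSO and 59.5, 58.7 and 60.8 CPM in PARGi (log2 fold change 0.14, SE 0.031, edgeR adjusted p = 0.00143).

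FANCA and FANCG, which bind each other in the complex, both rose a little. FANCG was at 83.5, 87 and 87.1 CPM in DMSO and 93.6, 90.6 and 94 CPM in PARGi (log2 fold change 0.11, SE 0.028, edgeR adjusted p = 0.0048). FANCA was at 119, 118 and 121 CPM in DMSO and 130, 126 and 126 CPM in PARGi (log2 fold change 0.10, SE 0.026, edgeR adjusted p = 0.00855). The FANCA call was lost without PARGi replicate 1 (0.08, edgeR adjusted p = 0.0647) and with upper-quartile scaling (0.07, edgeR adjusted p = 0.052). ZNF276, which faces 23.6% of the exonic bases of FANCA, was lower (log2 fold change -0.18, edgeR adjusted p = 0.000324).

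FANCF, an adaptor subunit, fell from 19.8, 17.8 and 18.5 CPM in DMSO to 16.8, 15.9 and 15 CPM in PARGi. The groups did not overlap, although the spread within a group was wider than for most members. The log2 fold change was -0.24 (SE 0.051, 95% interval -0.35 to -0.14, edgeR adjusted p = 0.00096), a change of -15.4%, and the call held in all 17 alternatives. FANCF occupies positions 22622890 to 22625841 of chromosome 11, minus strand. FANCC and FANCE, the other subunits of its module, did not pass, with log2 fold changes of -0.03 (interval -0.10 to 0.03) and 0.04 (interval -0.03 to 0.12). Nor did FANCL, the ubiquitin ligase (-0.06, interval -0.13 to 0.01), or FANCM, the translocase that anchors the complex on DNA, whose log2 fold change of 0.003 had an interval from -0.08 to 0.09.

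**Figure D2:**
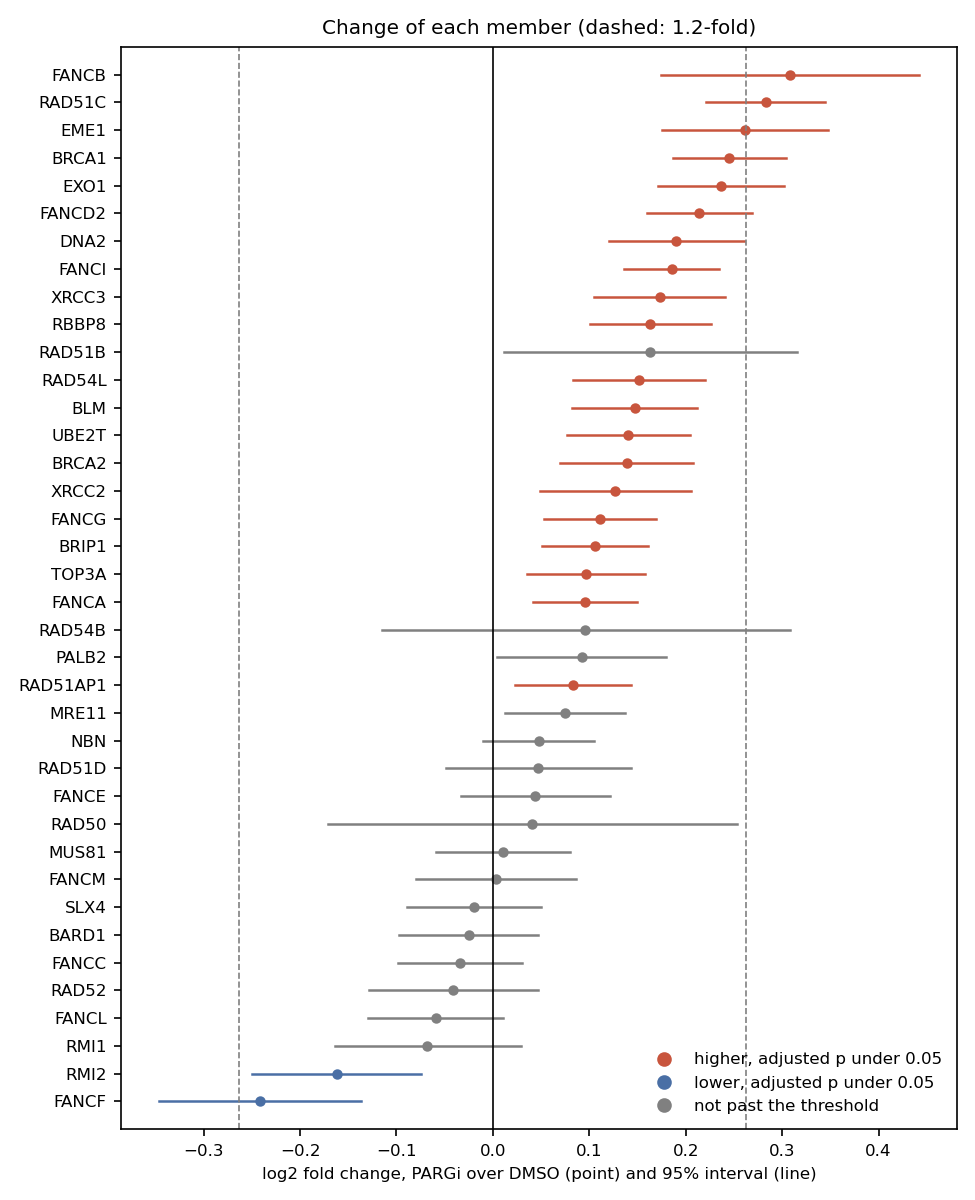
Points are the log2 fold changes of the 38 transcripts, PARGi over DMSO, and lines their 95% intervals from edgeR, in order of size. Red marks the 20 members called higher, blue the 2 called lower and grey the 16 that did not pass. Dashed lines mark a 1.2-fold change, and no interval of a called member lies wholly outside them.

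Levels between genes were compared per kilobase of exonic length. The highest were UBE2T with 34.4 CPM per kilobase, FANCI with 27.4 and RAD51AP1 with 26.6, means over the 6 libraries, and the order of FANCI and RAD51AP1 turned with treatment, from 25.6 and 25.9 in DMSO to 29.1 and 27.4 in PARGi. The lowest were RAD50 with 0.336, RAD54B with 0.536 and RAD51B with 1.05 CPM per kilobase, and most exonic bases of RAD50 and RAD54B are shared with another gene on the same strand. The median member was at 7 CPM per kilobase. Exonic length joins the exons of all annotated transcripts, so it understates the level of genes with rarely used exons.

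Proteins of this pathway often work as fixed pairs, so the ratio of partner transcripts was taken within each library, which is free of the scaling between libraries. The 14 pairs were chosen for known complexes with the members' changes already known, so the values are a description. BRCA1 over BARD1 stood at 1.49, 1.57 and 1.63 in DMSO and 1.92, 1.91 and 1.83 in PARGi. EME1 over MUS81 went from 0.575, 0.557 and 0.548 to 0.662, 0.656 and 0.679. Both ratios were higher in each PARGi library than in any control.

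FANCB over FANCL, subunits of the catalytic module, had the widest gap, from 0.176, 0.199 and 0.208 in DMSO to 0.25, 0.246 and 0.259 in PARGi, a log2 difference of 0.37. FANCF over FANCC went the other way, from 0.412, 0.377 and 0.384 to 0.352, 0.347 and 0.32, and FANCF over FANCE from 0.595, 0.503 and 0.533 to 0.484, 0.428 and 0.429. The FANCI over FANCD2 ratio hardly moved in size, at 2.48 ± 0.0068 (DMSO) against 2.43 ± 0.025 (PARGi, SD, n = 3 per group), though its groups did not overlap. XRCC2 over RAD51D and RAD51C over XRCC3 were higher in each PARGi library than in any control, and RMI2 over RMI1 was lower. The ratios of BRCA2 over PALB2, RAD51C over RAD51B, BLM over TOP3A, MRE11 over NBN and FANCG over FANCA overlapped between the groups. In all, 9 of the 14 pairs did not overlap, and RAD51C and FANCF recur among the pairs. The share among pairs of other genes was not taken, so this count has no background to be read against. Of single tested genes, 19.8% lay wholly above and 18.2% wholly below, but a ratio is another measure with another spread.

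**Figure D3:**
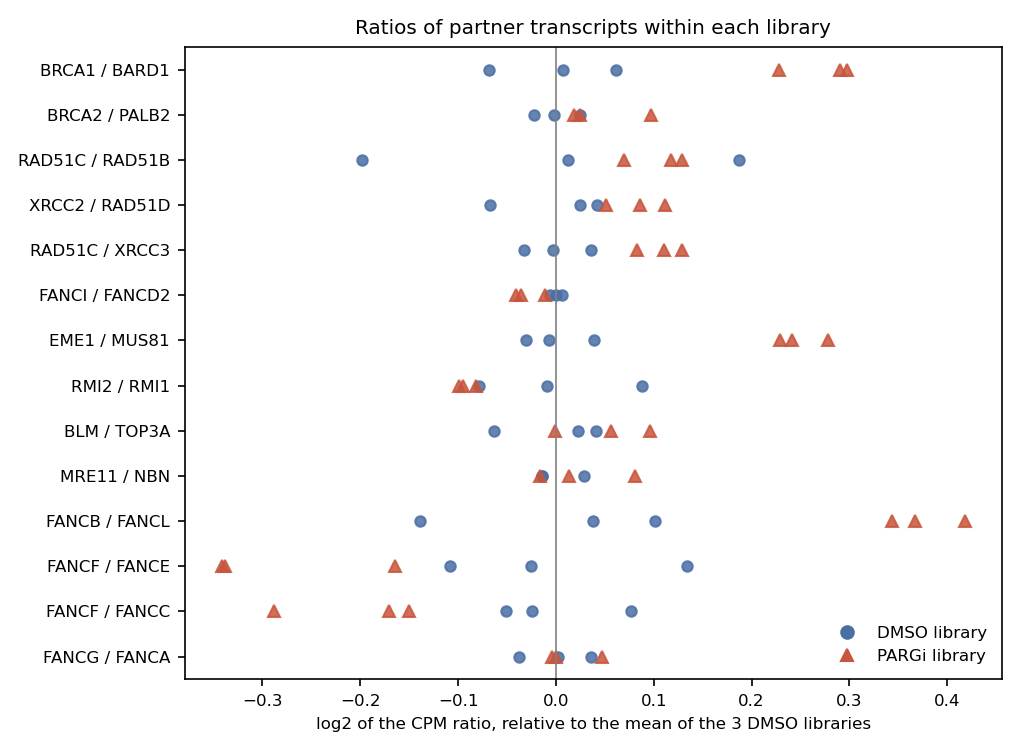
Each row is the ratio of 2 partner transcripts within a library, as log2 relative to the mean of the 3 DMSO libraries; circles are DMSO and triangles PARGi libraries. The ratios of FANCB to FANCL, BRCA1 to BARD1 and EME1 to MUS81 lie furthest to the right, and those of FANCF to FANCE and FANCC lie to the left.

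A list of 53 other genes of the same pathways was read beside the members. Those not tested had too few counts, and exon overlaps were looked up for the members alone. Of the 51 tested, 13 rose (25.5%, beside 13.2% of all tested genes) and 1 fell, at a median log2 fold change of 0.014. POLQ, the polymerase of an end-joining route that takes over when recombination fails, had the smallest p, with 64.9 ± 1.66 CPM in DMSO and 78.6 ± 2.27 CPM in PARGi (log2 fold change 0.28, edgeR adjusted p = 1.8e-07). RPA1, of the complex that coats single-stranded DNA, rose from 156 ± 0.731 to 167 ± 1.57 CPM (log2 fold change 0.10, edgeR adjusted p = 0.00424).

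MCM8, a subunit of the MCM8-MCM9 helicase of recombination, and HROB, which loads that helicase, rose with log2 fold changes of 0.20 and 0.27, while MCM9 did not pass at -0.004. RNF8, a ubiquitin ligase of break signalling (0.20), CENPX, a DNA-binding partner of FANCM (0.18), SWI5, a cofactor of strand exchange (0.19), and PARPBP, an inhibitor of recombination (0.18), rose as well. MAD2L2, a subunit of the end-protecting shieldin complex (0.12), and RFWD3, a ubiquitin ligase that acts on RPA (0.10), had smaller rises, and FIRRM and GEN1 were called at 0.12 and 0.10. The last pair was less firm, with the FIRRM call kept in 9 of 17 alternatives and the GEN1 call in 6. The lower gene was ZSWIM7, of the Shu complex (-0.17, edgeR adjusted p = 0.0192). This call was lost without DMSO replicate 1, PARGi replicate 1 or PARGi replicate 3, with DESeq2 and with the GC and length offset. Of the 6 genes whose products hold BRCA1 at ubiquitin marks or bind BRCA2, edgeR, DESeq2 and limma-voom each called 0, and 1, BRCC3, had an unadjusted edgeR p under 0.05.

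Because many of the members are expressed with the cell cycle, 24 G1/S and 24 G2/M genes outside the list were read beside them. Of the G1/S genes 9 rose (37.5%) and 4 fell (16.7%), with a median of 0.036. Of the G2/M genes 6 rose (25%) and 3 fell (12.5%), with a median of 0.018. Of all tested genes, 13.2% were called higher and 11% lower. RRM2, a subunit of ribonucleotide reductase, rose (log2 fold change 0.28, edgeR adjusted p = 3.47e-09), as did CCNE1, a cyclin of S phase entry (0.26). CDK1 (0.19) and TOP2A (0.15) of the G2/M list rose as well. In the G1/S list MCM6 of the replicative helicase fell (-0.20, edgeR adjusted p = 8.7e-06), and MCM5 (-0.15), MCM2 (-0.11) and UNG (-0.09) with it. The G2/M genes that fell were CDC20 (-0.12), PLK1 (-0.09) and CENPF (-0.07). In both lists the share called lower was nearer to that of all tested genes than the share called higher. The part of the cell cycle in the members' rise was not tested. Leaving out PARGi replicate 2 took the lower G2/M genes from 3 to 1.

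**Figure D4:**
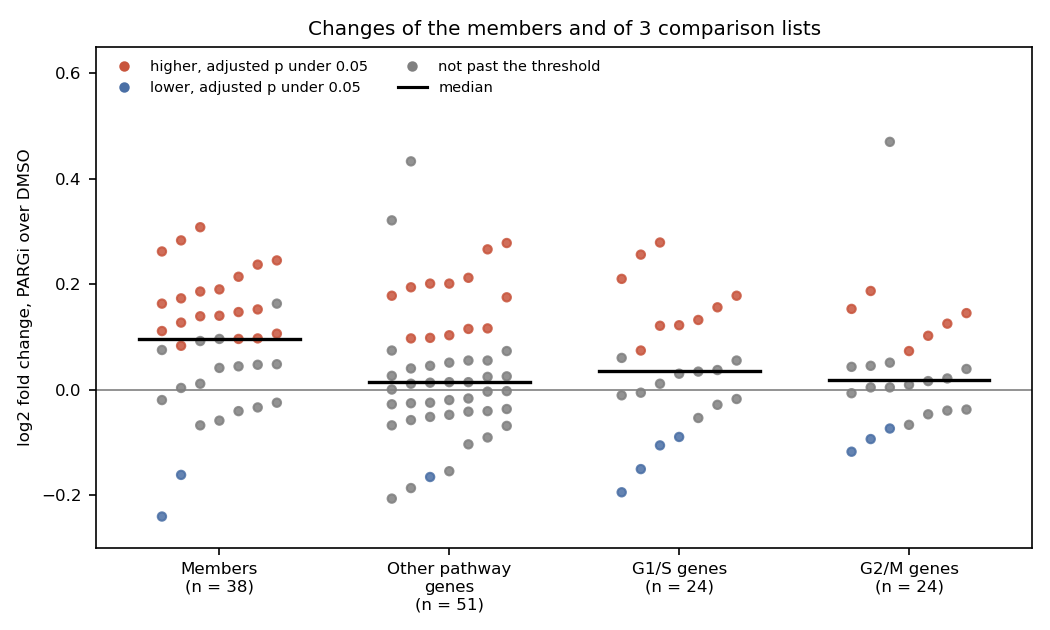
Points are log2 fold changes, PARGi over DMSO, of the tested genes of each list, spread sideways for legibility, and black lines are the medians: 0.096 for the 38 members, 0.014 for the 51 other pathway genes, 0.036 for G1/S and 0.018 for G2/M genes. Red and blue mark genes called higher and lower. The grey points above 0.3 are FIGNL1, CENPS and NUSAP1, which are all below 1 CPM. Whether these low values come from uncounted reads was not tested.

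The members differ from the bulk of tested genes in base composition, with a median GC content of 43% beside 49.6% for the tested protein-coding genes. GC content was taken over all annotated transcripts of a gene, so exons shared by several transcripts count more than once. The median exonic length was 5771 bases beside 5086. Members called higher and the others were alike in GC content, with 42.9% and 43.3%. With an offset for GC content and length, 21 members were called higher and 2 lower. The same offset raised the number of higher calls over all genes and lowered the number of lower calls. With it the median log2 fold change went from 0.096 to 0.112 for the members and from -0.007 to 0.014 for all genes. The members are spread over 18 chromosomes. Chromosome 17 holds the most, 6: BRCA1, BRIP1, RAD51C, TOP3A and EME1 rose, and RAD51D did not pass.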

How the data were processed

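Groups and replicate numbers were read from the sample titles. Each library's deposited file gives unnormalized counts for every gene as whole numbers. Per the submitters' processing notes, cutadapt 1.18, STAR 2.7.3a and SAMtools 1.9 were used with hg38, and the annotation release and the strand setting of the count are not given in the sources used here. Of 325 genes lying at least 95% inside exons of an abundant opposite-strand gene, 295 had counts (median 16 over 6 libraries). The counts were read as strand-specific. Bases outside the abundant gene could also give such counts, so the check does not settle the strand setting. Gene symbols were matched by Ensembl identifier, and positions are those of GENCODE 29. Reads that match 2 genes may be uncounted. edgeR 4.0.16 (filterByExpr, TMM, glmQLFit, two-sided glmQLFTest, treatment alone, all 6 libraries) was fitted to 20409 genes, with Benjamini-Hochberg adjustment over all of them. Each SE was derived from the fitted log2 change and its F statistic. Alternatives were DESeq2 1.42.0, limma-voom (limma 3.58.1), other scalings, filters and dispersions, protein-coding genes only, a GC and length offset, a replicate block, and each library left out. The scripts were tested on simulated counts. Every member is accounted for; the other lists name called genes, at most 12 by p for pathway genes and 2 per cell cycle list, and AC060780.1, KLC1, LRRC59, ZNF276 and other overlapping genes are named for their overlap. MCM9, MCM6, MCM5, MCM2, UNG, CDC20, PLK1, CENPF, BRCC3, FIRRM, GEN1, FIGNL1, CENPS, NUSAP1, KRT14, COL1A2, RUNX2, SPARC, CDH1 and TWIST1 were named after their values were seen. The members and lists were chosen with earlier results of these data known. Depth limits precision for low genes. The p-values rest on the spread between 3 replicates that the submitters call biological, with the variance of each gene estimated in part from all genes. The common coefficient of variation between replicates was 2.7%, so small changes could pass. How independent the replicates were cannot be read from the counts. Figures were drawn with matplotlib 3.10.9. A gene of the wider pathway list is counted in its list and not reported here by name.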

Additional observations from a re-analysis of the deposited data

How the results depend on the processing

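Of the 22 called members, 18 kept their call in all 17 alternative fits; XRCC2, RAD51AP1, TOP3A and FANCA did not. The count of members called higher ran from 16 (upper-quartile scaling) to 21, and from 17 to 21 with a library left out; it was 17 at an adjusted p under 0.01 and 0 against a 1.2-fold change, where the count of lower members, and of members of each role, was 0 too. For the genes of strand exchange, 3 in place of 5 were called with upper-quartile scaling and at 0.01, and 3 to 6 with a library left out. The median of the members was 0.072 with upper-quartile scaling, 0.081 for protein-coding genes only, 0.112 with the GC and length offset, with or without the replicate block, and 0.093 to 0.104 with a library left out. The median of all genes was -0.032 with upper-quartile scaling, -0.004 for protein-coding genes and 0.014 with the offset, with or without the block. With a library left out, the median of all genes was -0.009 to -0.005. Other pathway genes called lower were 5 with upper-quartile scaling, 4 for protein-coding genes, 0 with DESeq2 and with the GC and length offset, with or without the block, and 0 to 2 with a library left out. Lower G2/M genes were 1 to 4 with a library left out. Upper-quartile scaling took the share of higher calls among all called genes from 54.5% to 40.5%. Signs turned for members near 0: FANCM to -0.022 (upper-quartile), -0.012 (protein-coding), -0.003 (offset) and -0.004 (offset with block), and, with a library left out, -0.033 to 0.026, below 0 without DMSO replicate 2, DMSO replicate 3 or PARGi replicate 2; MUS81 to -0.014 (upper-quartile) and -0.005 (protein-coding); SLX4 to 0.000 (offset) and -0.035 to 0.011 with a library left out, above 0 without PARGi replicate 3; RAD50 to -0.059 without DMSO replicate 2, within -0.059 to 0.12 with a library left out. The cause was not tested. Deviations of same-numbered libraries correlated at -0.00585, 0.0157 and -0.00784 over genes, and those of differently numbered libraries at -0.0286 to 0.0354. No shared deviation was seen, but these values hold counting noise and cannot exclude that the replicate numbers pair the samples. With the replicate block, 20 members were higher and 2 lower, as without it.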
